A study of Mus musculus with 14 samples.

Results

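Leukocytes sorted from mouse liver were compared at 2 inputs, 5000 and 10000 cells carrying CD45 on their surface, to ask which transcripts keep their level at the lower number of cells and which differ from one library to the next. The libraries were chosen by their titles alone, 3 at each input, and are 6 of the 14 libraries of the study. All 6 came from wild-type (WT) mice with no treatment, from needle biopsies of the liver sorted by flow cytometry, so the groups share genotype, tissue, sort and the SMART-seq v4 chemistry, which amplifies cDNA from small amounts of RNA. The labels give no strain, age or sex, and nothing in them ties libraries to separate mice, so each p-value reflects spread between these libraries alone, which may be technical. A further 6 libraries, of 2500 and 20000 sorted cells from the same protocol, share the estimate of the spread in the main test and show whether a pattern recurs.

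CD45, encoded by Ptprc, is a phosphatase on the surface of nucleated blood cells, and a sort on it collects the leukocyte lineages of the liver together: B and T lymphocytes, natural killer (NK) cells, monocytes, dendritic cells, neutrophils and the resident macrophages called Kupffer cells. A transcript that every cell of an abundant lineage carries is averaged over many cells of a sample. A transcript that few cells carry at a high level, as plasma cells carry immunoglobulin and maturing neutrophils carry granule proteins, depends on how many of those cells enter the sample.

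Total counts were 8513416, 14496314 and 10385463 in the 5000-cell libraries and 9482496, 9834628 and 9743133 in the 10000-cell libraries. After thinning to the smallest total, 19990 to 20382 genes had a count. The Spearman correlation across genes, a description since genes are not replicates, was 0.988 to 0.989 between 5000-cell libraries, 0.990 to 0.992 between 10000-cell libraries and 0.988 to 0.991 across inputs. All pairs differed by more than counting noise, with a chi-square per degree of freedom of 3.21 to 10.0. The 15 pan-leukocyte genes were detected in all 6 libraries, the lowest at 18.7 CPM (counts scaled to a common library size), and the 26 hepatocyte genes took 0.0512% ± 0.00301 of counts at 5000 cells and 0.0456% ± 0.00492 at 10000 (SD, n = 3 each). In such mixed samples fewer cells of a type and less RNA per cell cannot be told apart.

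No gene passed the test between 5000 and 10000 cells. Of 14795 genes tested with the edgeR quasi-likelihood test on the 12 sorted libraries, 0 were higher and 0 lower at an adjusted p under 0.05 (0% in either direction), and the smallest Benjamini-Hochberg adjusted p was 0.157, for Lars2. At an unadjusted p under 0.05 there were 664 genes (4.49%), 362 higher at 5000 cells (2.45%) and 302 lower (2.04%). In 1636 genes (11.1%) the 3 libraries of one input all lay above the 3 of the other, 805 of them higher (5.44%) and 831 lower (5.62%) at 5000 cells. The count of calls depended on which libraries and which test estimated the spread. A fit on the 6 libraries alone, with 14333 genes tested, gave 14 higher (0.0977%) and 4 lower (0.0279%), DESeq2 on the 12 libraries gave 2 and 7, and limma-voom gave 0 and 0.

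A lack of calls does not show equal levels, and the 95% interval of the log2 difference was used for that. For 9317 genes (63%) the whole interval lay within 1.5-fold in either direction, and among the 7854 genes with a mean of at least 20 CPM it did so for 7552 (96.2%). Between single libraries the highest of the 6 was at most 1.5 times the lowest for 7295 of the 7854 genes (92.9%). The median SD of log2 CPM was 0.098 among the 5000-cell libraries and 0.093 among the 10000-cell libraries, against 0.13 at 2500 cells, 0.093 at 20000 cells and 0.057 from counting alone. As a share of a gene's level this was 7.04% at 5000 cells and 6.68% at 10000. The SD was lower for more abundant genes, with medians of 0.13 and 0.12 at 20 to 50 CPM and of 0.065 and 0.063 at 200 to 1000 CPM.

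**Figure D1:**
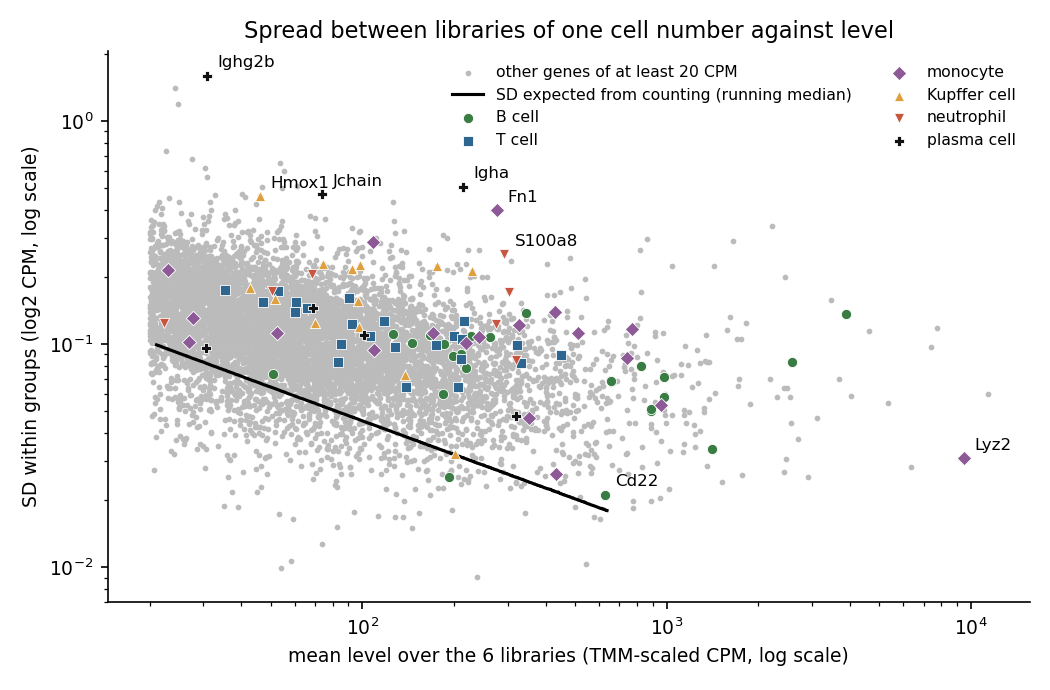
Spread between libraries of one cell number (pooled SD of log2 CPM within the 5000-cell and 10000-cell groups, y axis, log scale) against mean level over the 6 libraries (TMM-scaled CPM, x axis, log scale), with 1 point per gene of at least 20 CPM and the black line showing the SD that counting alone gives. Igha (SD 0.51), Jchain (0.47), Hmox1 (0.46) and Fn1 (0.40) lie far above the cloud, whose median SD is near 0.1.

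The 11 lists of leukocyte genes hold 198 genes, of which 188 were tested and 156 had at least 20 CPM. Of these 156, 136 (87.2%) stayed within 1.5 times from the lowest to the highest library and 139 (89.1%) had an interval within 1.5-fold, beside 92.9% and 96.2% of all genes of that level. The lists of pan-leukocyte genes (15 of 15), T cells (23 of 23), NK and innate lymphoid cells (21 of 21), B cells (23 of 23) and MHC class II (10 of 10) had all members of that level inside the 1.5 limit. Monocyte genes had 17 of 19 and dendritic cell genes 13 of 16 inside it, while plasma cell genes had 4 of 7, neutrophil genes 4 of 8, Kupffer cell genes 6 of 13 and mast cell or basophil genes 1 of 2. Those nearest to the limit were Hdc (1.44), Klf4 (1.46) and Mmp8 (1.48) inside and Clec10a (1.54), Kit (1.55) and C1qb (1.58) outside. Ngp of the neutrophil list and Ighg2b of the plasma cell list, both outside, reached 20 CPM only through the libraries where they were high. Among the 188 tested genes, 22 (11.7%) had an unadjusted p under 0.05, 13 higher and 9 lower at 5000 cells, beside 4.49% of all genes. No overlap was seen for 23 (12.2%), beside 11.1%, and 0 passed. Such a p was held by 1 of 15 pan-leukocyte genes (lower), by 1 higher and 1 lower of 23 B cell genes, and by 2 of 20 dendritic cell genes (higher).

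**Figure D2:**
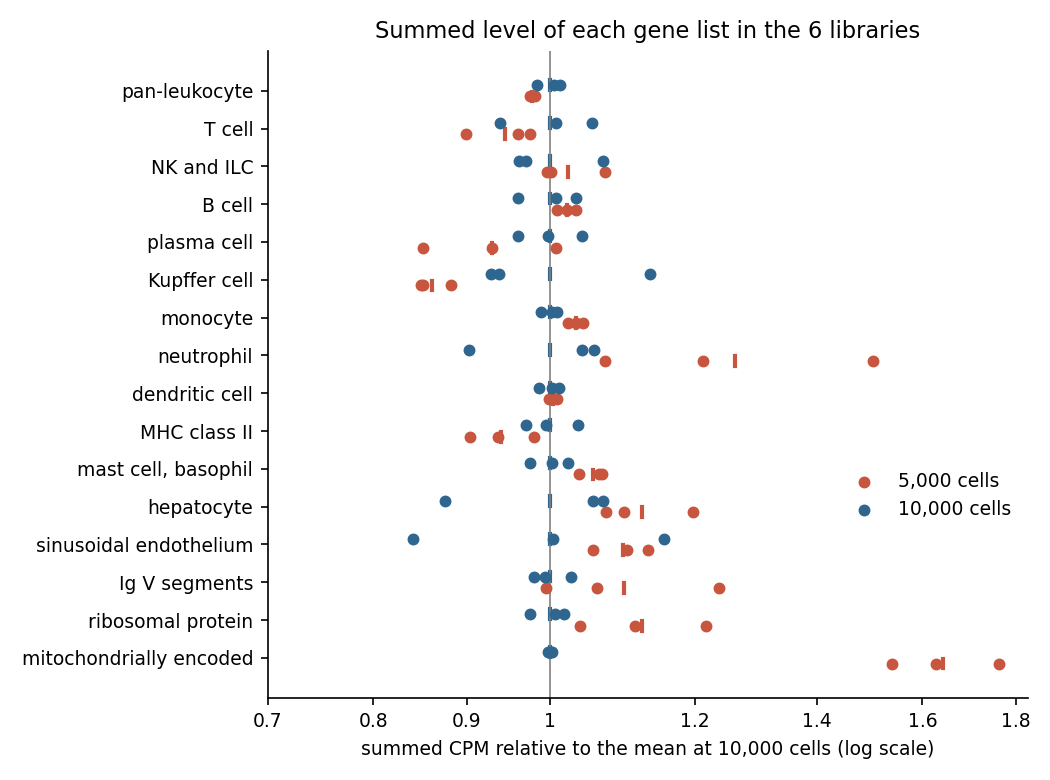
Summed CPM of each gene list in the 3 libraries of 5000 cells (red) and the 3 of 10000 cells (blue), relative to the mean at 10000 cells (x axis, log scale), with a short bar at each group mean. The highest pan-leukocyte, B cell, monocyte and dendritic cell sums are 1.02 to 1.08 times the lowest, the neutrophil sum spans 1.67 times, and the mitochondrially encoded sum is higher in all 3 libraries of 5000 cells.

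Pan-leukocyte genes were close to level. Ptprc itself (ENSMUSG00000026395, GRCm38, chr1:138062861-138175708, minus strand) stood at 2586, 2533 and 2326 CPM at 5000 cells and 2610.4, 2619 and 2575 CPM at 10000. Replicate 3 at 5000 cells was the lowest, the groups overlapped, and the log2 difference between 5000 and 10000 cells of -0.07 (SE 0.04) had an interval of -0.16 to 0.02. Coro1a, which binds actin filaments in leukocytes, stood at 2749.7, 2617 and 2685 CPM against 2774, 2634 and 2746 CPM. Laptm5, a lysosomal membrane protein of blood cells, stood at 1802, 1830.3 and 1742 CPM against 1742, 1748 and 1751 CPM. The inputs overlapped for both genes. For Itgb2, the β2 chain of leukocyte integrins, and the phosphatase gene Ptpn6 the highest library was 1.06 and 1.07 times the lowest.

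B cell genes held the most even leukocyte gene of at least 20 CPM. Cd22, an inhibitory coreceptor of the B cell receptor, stood at 617, 642 and 625 CPM at 5000 cells and 632, 628 and 625 CPM at 10000. Its highest library was 1.04 times its lowest, and the SD within groups of 0.021 was close to the 0.018 that counting gives. Ighd, the constant region of the immunoglobulin D carried by naive B cells, stood at 1419, 1389 and 1414 CPM against 1447, 1367 and 1437 CPM. Ighm, the constant region of immunoglobulin M, was less even, at 4203, 4478 and 3571 CPM against 3761, 3411 and 3855 CPM, and overlapped. For Cd79a and Cd79b, the signalling chains of the B cell receptor, given as examples chosen after their values were seen, the highest library was 1.13 and 1.09 times the lowest. The sum of the 23 B cell genes was 16440.4 ± 192 CPM at 5000 cells and 16096 ± 603 CPM at 10000 (SD, n = 3 each). All 23 intervals lay within 1.5-fold, and the median log2 difference was -0.00, beside 0.00 over all tested genes.

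MHC class II molecules present antigen on B cells, dendritic cells and macrophages, and their genes were about as even between single libraries. H2-Aa, an α chain of the class II molecule, stood at 2466, 2419.6 and 2529 CPM against 2429.5, 2436 and 2519.7 CPM. H2-Ob, part of a modulator of peptide loading, stood at 545, 568 and 543 CPM against 569, 556 and 569.6 CPM. Both genes overlapped between inputs. The invariant chain gene Cd74 and the β chain gene H2-Ab1 had log2 differences of -0.10 (SE 0.06) and -0.10 (SE 0.06). All 11 intervals of the list lay within 1.5-fold. Of the 11 estimates 9 were below 0, with a median log2 difference of -0.03. The sum was 21120 ± 863 CPM at 5000 cells and 22468 ± 745 CPM at 10000 (SD, n = 3 each), and overlapped.

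T cell and NK cell genes were somewhat less level. Lck, the kinase that starts T cell receptor signalling, stood at 425, 441 and 437 CPM at 5000 cells and 466, 424 and 504 CPM at 10000. Tcf7, a transcription factor of naive and memory T cells, stood at 328, 322 and 315 CPM against 338, 321 and 374 CPM. Replicate 3 at 10000 cells was the highest library for both, and the groups overlapped. Of 25 T cell genes 22 had an estimate below 0, with a median log2 difference of -0.06, 0 had an unadjusted p under 0.05, and 24 intervals lay within 1.5-fold. The exception was Ctla4, an inhibitory receptor, at 5.89, 4.75 and 6.43 CPM against 5.97, 8.84 and 9.09 CPM, which overlapped. All 23 genes of NK and innate lymphoid cells had intervals within 1.5-fold, including Il2rb (0.17, SE 0.14), a chain of the receptors for interleukins 2 and 15, and Tyrobp (0.13, SE 0.06), a signalling adaptor that myeloid cells also carry. Ccl5, a chemokine of cytotoxic lymphocytes chosen after its values were seen, had the smallest unadjusted p of the list (0.00398, edgeR; adjusted p = 0.819). It stood at 299, 286 and 326 CPM against 266, 250.2 and 255 CPM, without overlap. It was 1 of 3 genes of the 23 without overlap, beside 11.1% of all genes.

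**Figure D3:**
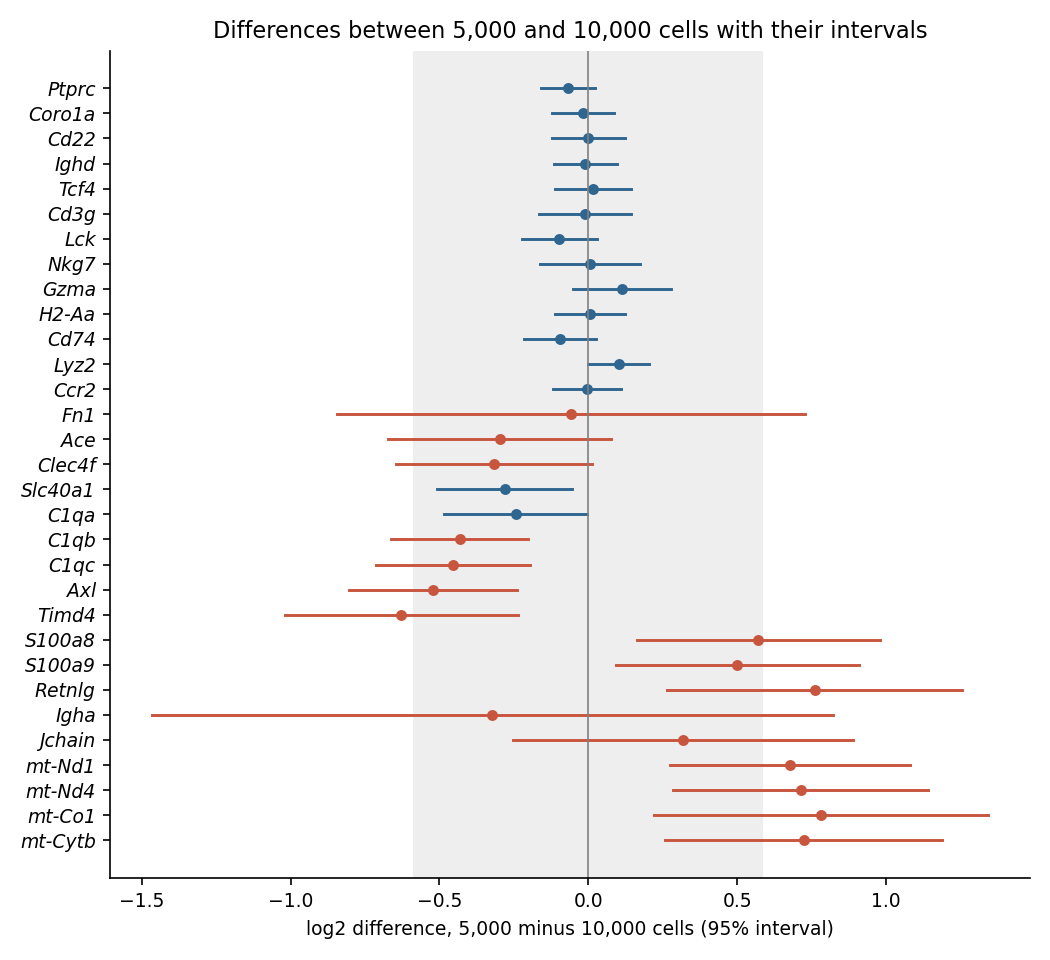
Log2 difference between 5000 and 10000 cells for 31 genes with its 95% interval from the fit on the 12 sorted libraries (points and lines), where the grey band marks differences within 1.5-fold and blue marks intervals that lie wholly inside it. Lymphocyte and MHC class II genes lie inside the band, Fn1 (-0.85 to 0.73) and Igha (-1.46 to 0.82) have wide intervals around 0, and the mitochondrial genes have intervals above 0 that reach past the band.

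Monocyte genes were even between libraries, with a slightly higher sum at 5000 cells on counts. On TPM the ratio of the sums was 0.988 in place of 1.03. The sum was 15614 ± 152 CPM at 5000 cells and 15116 ± 154 CPM at 10000 (SD, n = 3 each), higher in all 3 libraries of 5000 cells. Of 21 genes 9 had an estimate above 0 and 12 below, with a median log2 difference of -0.03. The higher sum was therefore not a trait shared by the list. Of the 21, 4 had an unadjusted p under 0.05 upward, beside 2.45% of all genes, 5 did not overlap upward, beside 5.44%, and 0 passed. Most of the sum came from Lyz2, the lysozyme of myeloid cells, which stood at 9906, 9732 and 9916 CPM against 8958, 9113 and 9466 CPM. Its groups did not overlap, with a log2 difference of 0.10 (SE 0.05; unadjusted p = 0.0510, edgeR). Irf8, a transcription factor of monocytes and dendritic cells, overlapped (-0.07, SE 0.06). Ly6c2 and Chil3, made by classical monocytes and chosen after their values were seen, had all 3 values at 5000 cells above those at 10000. Their log2 differences were 0.21 (SE 0.06) and 0.27 (SE 0.09), with adjusted p of 0.797 and 0.998 (edgeR), so neither passed. Fn1, which encodes fibronectin, stood at 347, 231 and 235 CPM against 356, 296 and 193 CPM. Both inputs held high and low libraries of it, and the log2 difference of -0.06 had an interval of -0.85 to 0.73. Ace, a peptidase of patrolling monocytes, stood at 107, 90.7 and 92.9 CPM against 151, 117 and 88.8 CPM. Replicate 1 at 10000 cells was the highest, and without it the highest library was 1.32 times the lowest in place of 1.70.

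Dendritic cell genes were level in sum, at 3244 ± 15.4 CPM at 5000 cells and 3233 ± 40.2 CPM at 10000 (SD, n = 3 each). Tcf4, a transcription factor of plasmacytoid dendritic cells that B cells also carry, stood at 241, 239.9 and 231 CPM against 232, 242 and 230.5 CPM. Ccr7, which guides dendritic cells and lymphocytes, and Id2, a transcriptional regulator, overlapped, with log2 differences of 0.03 (SE 0.05) and 0.04 (SE 0.08). Zbtb46, a transcription factor of conventional dendritic cells, stood at 15.6, 21.4 and 26.96 CPM against 22.5, 25.5 and 26.3 CPM. Replicate 1 at 5000 cells was the lowest, and without it the ratio of highest to lowest was 1.26 in place of 1.73. Bst2, an interferon-induced membrane protein, stood at 78.3, 97.3 and 89.9 CPM against 59.9, 77.2 and 76.2 CPM, without overlap and without passing (adjusted p = 0.998, edgeR).

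Of 20 tested Kupffer cell genes 16 had an estimate below 0. Of these, 6 had an unadjusted p under 0.05, beside 2.04% of all genes in that direction, 4 did not overlap, beside 5.62%, and 0 passed. The median log2 difference was -0.24, against 0.00 over all tested genes, and was -0.11 without replicate 2 at 10000 cells, with 5 of 20 estimates above 0. C1qa, C1qb and C1qc encode the chains of complement component C1q, which macrophages secrete. C1qb (chr4:136880129-136886187, minus strand) stood at 88.2, 79.3 and 81.1 CPM at 5000 cells and 105, 125 and 105 CPM at 10000. C1qc stood at 82.8, 67.8 and 83.9 CPM against 97.2, 129 and 93.8 CPM. C1qa stood at 50.6, 45.6 and 45.7 CPM against 50.4, 65.5 and 51.7 CPM. All 5000-cell libraries lay below all 10000-cell libraries for C1qb and C1qc, while C1qa overlapped by a narrow margin. The log2 differences were -0.43 (SE 0.11), -0.45 (SE 0.12) and -0.24 (SE 0.11) for C1qb, C1qc and C1qa, with adjusted p of 0.688, 0.797 and 0.998 (edgeR).

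The other 3 of these 6 genes were Axl, a receptor for dying cells, Timd4, which also binds dying cells, and the iron exporter Slc40a1. Axl stood at 52.1, 62.5 and 57.5 CPM against 87.9, 84.6 and 75.1 CPM, without overlap (-0.52, SE 0.13; adjusted p = 0.755, edgeR). It was the 1 Kupffer gene that passed in the fit on the 6 libraries alone (adjusted p = 0.0291). In the 2500-cell and 20000-cell libraries Axl ranged from 59.2 to 92.9 CPM, which reaches into both groups. Timd4 stood at 11.9, 9.28 and 11.5 CPM against 13.6, 20.8 and 15.8 CPM, and Slc40a1 stood at 182, 229.6 and 208 CPM against 222, 304 and 228 CPM. Timd4 did not overlap and Slc40a1 did. Replicate 2 at 10000 cells held the highest value of 13 of the 20 genes. Without that library the log2 differences were -0.11 for C1qa, -0.34 for C1qb, -0.29 for C1qc, -0.44 for Timd4, -0.12 for Slc40a1 and -0.50 for Axl. The Kupffer sum was 1397 ± 30.1 CPM at 5000 cells and 1519, 1840.3 and 1505 CPM in the 10000-cell libraries, again highest in replicate 2.

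Other macrophage genes overlapped between inputs. Cd68, a lysosomal glycoprotein, stood at 194, 201 and 202 CPM against 201, 204 and 209.9 CPM and overlapped. Adgre1, which encodes F4/80, and Vsig4, a complement receptor, overlapped as well, with log2 differences of 0.05 (SE 0.17) and -0.03 (SE 0.12). Hmox1, the heme-degrading enzyme, varied within each input, at 62.4, 35.4 and 52.9 CPM against 30.05, 59.4 and 37.3 CPM.

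Neutrophil genes had estimates of the other sign, and their size rested on 1 library. All 16 tested members had an estimate above 0, with a median log2 difference of 0.54. They include Ngp, Ltf and Camp, granule genes described below that were high in 1 library at 5000 and 1 at 10000 cells. In the fit on the 6 libraries alone 13 members were tested, all 13 had an estimate above 0, and the median was 0.22. In the fit on the 12 libraries without replicate 3 at 5000 cells, 10 of the 16 estimates were above 0 and the median was 0.14. The median was also smaller by other methods, at 0.19 with limma-voom, 0.19 with DESeq2 and 0.09 on log2(TPM + 1), where 12 of 15 estimates were above 0. Of the 16, 4 had an unadjusted p under 0.05, beside 2.45% of all genes in that direction, 4 did not overlap, beside 5.44%, and 0 passed. S100a8 and S100a9 encode the subunits of calprotectin, an abundant protein of the neutrophil cytosol. S100a8 stood at 289, 327 and 434 CPM at 5000 cells and 251, 255 and 200.5 CPM at 10000. S100a9 stood at 315, 348 and 405 CPM against 267, 268 and 220.4 CPM. Replicate 3 at 5000 cells was the highest and replicate 3 at 10000 cells the lowest library for both, and the groups did not overlap. The log2 differences were 0.57 (SE 0.18) and 0.50 (SE 0.18), with adjusted p of 0.998 and 0.998 (edgeR), and were 0.39 and 0.40 without replicate 3 at 5000 cells. Retnlg, a small secreted protein of mature neutrophils, stood at 27.1, 27.98 and 29.3 CPM against 16.6, 14.7 and 18.5 CPM. It did not overlap (0.76, SE 0.23; adjusted p = 0.858, edgeR), and it passed in the fit on the 6 libraries alone (adjusted p = 0.0267). Its values in the 2500-cell and 20000-cell libraries, 18.3 to 43.9 CPM, began near the level of the 10000-cell group and reached above the 5000-cell group. For Mmp9, a metalloproteinase of mature neutrophils, and Csf3r, the receptor of granulocyte colony-stimulating factor, the highest library was 1.246 and 1.26 times the lowest.

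Granule genes of maturing neutrophils had very uneven counts. Ngp, neutrophilic granule protein (chr9:110419747-110423012, plus strand), had 0, 2 and 1116 counts in the 5000-cell libraries and 430, 14 and 1 counts in the 10000-cell libraries. Ltf, which encodes lactoferrin, had 0, 6 and 771 counts against 282, 2 and 0 counts. Camp, the cathelicidin precursor, had 0, 0 and 240 counts against 83, 1 and 2 counts. These 3 genes were high in replicate 3 at 5000 cells and replicate 1 at 10000 cells, and at or near 0 in the other 4 libraries. Ngp had a mean of at least 20 CPM only through those high libraries, so its place among the least even genes is partly set by the filter. A count of 0 allows up to 3 counts, 0.354 CPM in replicate 1 at 5000 cells, for counting error only. In the libraries of the other inputs the summed counts of the 3 genes were 10, 2520 and 4 at 2500 cells and 118, 241 and 0 at 20000 cells. Lcn2, which encodes lipocalin 2, a granule protein that other cells can make, stood at 13.2, 12.6 and 37.99 CPM against 16.4, 10.4 and 10.7 CPM and was highest in the same 2 libraries. Calprotectin followed this in part, with S100a8 highest in replicate 3 at 5000 cells but at the level of replicate 2 in replicate 1 at 10000 cells. The interval of the log2 difference of Ngp ran from -4.19 to 6.60.

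The promoters of these genes are shown because their counts were high and low together, and C/EBP transcription factors are known regulators of granule genes. The letters TTGCNNAA, a form of the C/EBP site, were searched on both strands in the 250 bases before each RefSeq start (GRCm38.p6), where 3142 of 32851 promoters (9.56%) hold them. Matches were found for Ngp, Ltf and Lcn2 and not for Camp. Among the other neutrophil genes searched, S100a9, Retnlg and Mmp8 also held a match and S100a8 did not. A match was thus not particular to the genes that were high and low together. The 100 bases before each start follow, 5′ to 3′ on the strand of the gene, with a match in capitals. The second match of Ngp and the match of Lcn2 lie farther upstream. For Ngp the GENCODE gene begins inside this window, upstream of the RefSeq start. The match in capitals for Ngp therefore lies within the GENCODE gene.
Ngp (chr9:110419708-110419807, plus strand): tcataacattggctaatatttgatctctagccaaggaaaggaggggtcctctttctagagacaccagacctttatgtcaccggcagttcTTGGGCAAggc
Ltf (chr9:111019192-111019291, plus strand): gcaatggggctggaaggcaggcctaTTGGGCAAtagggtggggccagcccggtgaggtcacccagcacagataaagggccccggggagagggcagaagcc
Camp (chr9:109849457-109849556, minus strand): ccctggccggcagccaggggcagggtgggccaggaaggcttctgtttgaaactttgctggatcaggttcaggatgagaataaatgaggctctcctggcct
Lcn2 (chr2:32387740-32387839, minus strand): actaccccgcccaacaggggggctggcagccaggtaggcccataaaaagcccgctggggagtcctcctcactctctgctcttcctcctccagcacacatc
A match is a description of these letters and not a measured site.

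Plasma cells are the antibody-secreting form of B cells, and 3 of their 7 genes of at least 20 CPM lay outside the 1.5 limit. Igha, the constant region of immunoglobulin A (chr12:113254830-113260236, minus strand), stood at 162, 115 and 294 CPM at 5000 cells and 199, 265 and 247 CPM at 10000. Jchain, the chain that joins immunoglobulin A and M into polymers, stood at 114, 77.3 and 54.6 CPM against 80.5, 69.2 and 46.9 CPM. Igha was highest in replicate 3 at 5000 cells and Jchain in replicate 1 at 5000 cells, and both overlapped between inputs. Ighg2b, the constant region of an immunoglobulin G class, stood at 4.95, 25.1 and 6.62 CPM against 123, 11.2 and 15.1 CPM. Replicate 1 at 10000 cells alone was high, and without it the highest library was 5.07 times the lowest in place of 24.78. The mean of Ighg2b reached 20 CPM only through that library, so its rank is partly set by the filter. In the 2500-cell libraries Igha stood at 9.28, 28.1 and 2.66 CPM and Jchain at 0.655, 0.402 and 0 CPM, below all 6 libraries of 5000 and 10000 cells. Xbp1, a transcription factor of secretory cells, stood at 321, 327 and 308 CPM against 308, 319 and 331 CPM and overlapped. For Prdm1, a regulator of plasma cell fate, and Mzb1, a chaperone of immunoglobulin assembly, the highest library was 1.19 and 1.22 times the lowest.

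A B cell builds each of its antibody chains by joining a variable (V) segment to shorter segments and passes that choice to its descendants, so the level of a V segment depends on the cells that chose it. V segments supplied 4 of the 10 least even genes of at least 20 CPM. Some reached that mean only through the 1 library where they were high, so their unevenness is partly set by the filter and is given as a description. The germline 3′ ends of 5 segments that were high in a single library are given so that their reads can be recognised (75 bases, coding strand, GENCODE M21 transcripts, GRCm38), with the codon of the conserved cysteine before the joining region in capitals. Coordinates are those of the whole segment, and Igkv6-15 was chosen after its values were seen.
Igkv4-55 (chr6:69607275-69607828, minus strand): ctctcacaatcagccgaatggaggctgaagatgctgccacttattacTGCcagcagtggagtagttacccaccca
Ighv1-80 (chr12:115912344-115912776, minus strand): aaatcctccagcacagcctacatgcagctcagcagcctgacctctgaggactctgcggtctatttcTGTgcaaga
Igkv14-111 (chr6:68256389-68256869, plus strand): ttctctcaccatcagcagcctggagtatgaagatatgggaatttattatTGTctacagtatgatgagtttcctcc
Igkv6-15 (chr6:70406469-70406992, minus strand): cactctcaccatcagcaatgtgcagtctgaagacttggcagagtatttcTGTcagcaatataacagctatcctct
Igkv10-96 (chr6:68631963-68632442, minus strand): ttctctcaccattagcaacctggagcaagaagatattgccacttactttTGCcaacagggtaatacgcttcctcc
The closest other segment matches each at 91.5% to 95.7% of positions, so the assignment of reads between them is uncertain.

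Igkv4-55, a κ light chain segment, stood at 97.1, 6.98 and 12.8 CPM at 5000 cells and 10.99, 8.14 and 9.19 CPM at 10000. Ighv1-80, a heavy chain segment, stood at 92.1, 12.4 and 12.8 CPM against 8.06, 11.4 and 12.1 CPM. Both were high in replicate 1 at 5000 cells, the library with the highest Jchain, and without it the highest library was 1.83 and 1.58 times the lowest. Igkv14-111 stood at 19.5, 20.6 and 62.5 CPM against 22.3, 18.6 and 21.9 CPM. Igkv6-15 stood at 40.6, 46.8 and 102 CPM against 44.6, 46.3 and 46.6 CPM. Both were high in replicate 3 at 5000 cells, the library with the highest Igha, and without it the ratios were 1.2 and 1.16. Igkv10-96 stood at 42.4, 110.2 and 37.9 CPM against 55.3, 33.4 and 42.7 CPM and was high in replicate 2 at 5000 cells. Other segments were highest in a 10000-cell library. Ighv3-6, chosen after its values were seen, stood at 15.3, 32.3 and 18.04 CPM against 17.5, 12.5 and 40.1 CPM. The λ segments Iglv1 and Iglv3, the most abundant on average, stood at 64.6, 76.6 and 70.7 CPM against 51.8, 100.2 and 87.4 CPM and at 51.2, 63.8 and 51.7 CPM against 72.1, 48.7 and 44.9 CPM and overlapped. Single segments were thus high in libraries of both inputs: Iglv3 was highest in replicate 1, Iglv1 in replicate 2 and Ighv3-6 in replicate 3 at 10000 cells. The sum over all V segments was 1569 ± 179 CPM at 5000 cells and 1430 ± 35.1 CPM at 10000 (SD, n = 3 each). Trbv13-2, the 1 T cell receptor V segment of at least 20 CPM, stood at 21.3, 21.2 and 24.8 CPM against 23.7, 22.3 and 23.1 CPM.

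**Figure D4:**
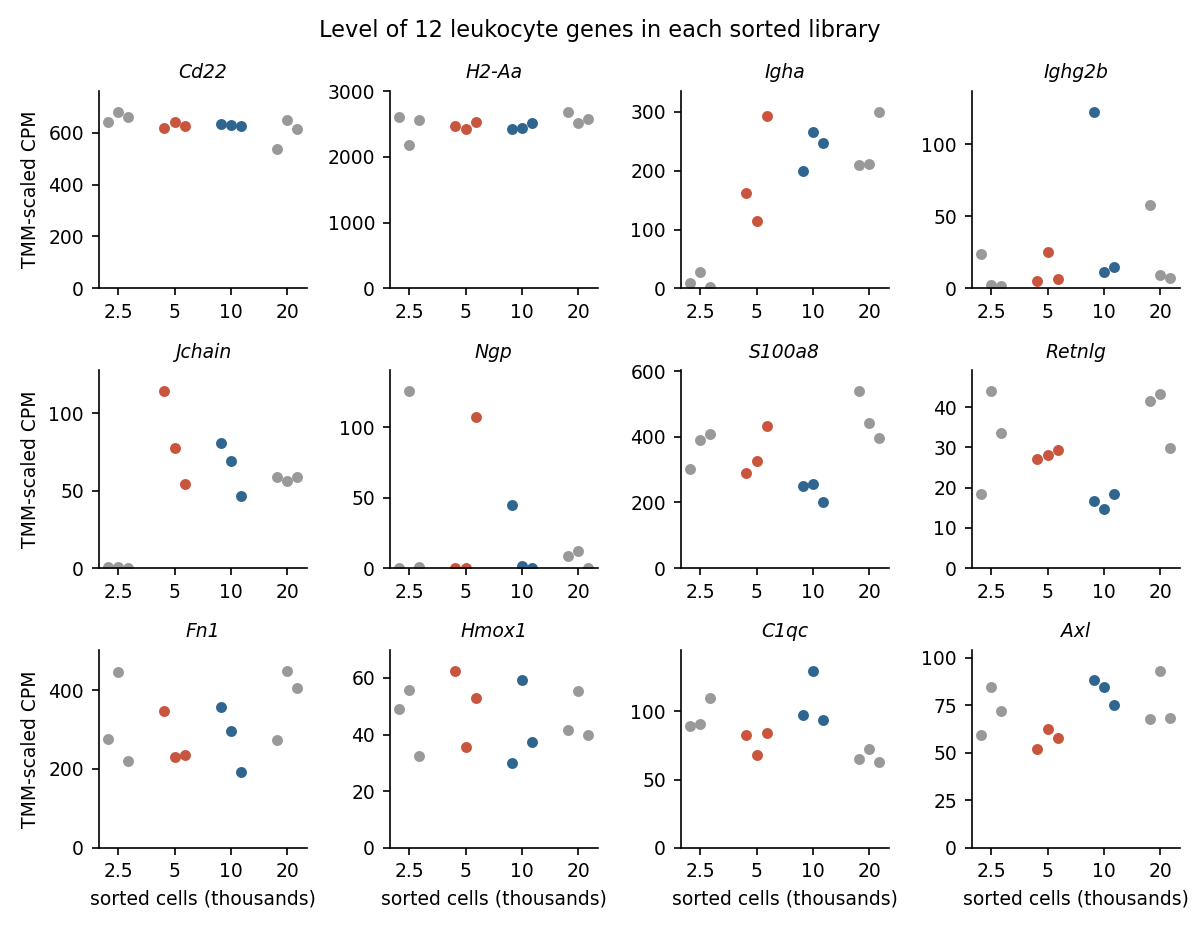
Level (TMM-scaled CPM, y axis from 0) of 12 leukocyte genes in each of the 12 sorted libraries, by number of sorted cells in units of 1000 (x axis), with 1 point per library in the order of replicates 1 to 3 and the 5000-cell and 10000-cell libraries in red and blue. Cd22 and H2-Aa lie level, Igha and Jchain are low in all 3 libraries of 2500 cells, and Ighg2b and Ngp are high in single libraries.

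The other genes among the 10 least even were Alox15, Tmed9, Nufip2 and Lyz1, beside Ngp and Ighg2b. Alox15, a lipoxygenase of macrophages and eosinophils, stood at 53.6, 5.16 and 0 CPM against 42.6, 19.4 and 8.37 CPM and was highest in replicate 1 of each input. Its mean reached 20 CPM only through those high libraries. Lyz1, a lysozyme gene close in sequence to Lyz2, stood at 38.7, 13.6 and 19.5 CPM against 36.01, 44.3 and 32.99 CPM, and reads could be split between the pair. Tmed9, a cargo receptor of the secretory pathway, stood at 39.3, 104 and 68.6 CPM against 26.8, 41.9 and 50.96 CPM. Nufip2, an RNA-binding protein, stood at 49.99, 103 and 70.04 CPM against 30.99, 59.8 and 53.7 CPM. Replicate 2 at 5000 cells was the highest and replicate 1 at 10000 cells the lowest for Tmed9 and Nufip2. The rank correlation between the SD within groups here and in the 2500-cell and 20000-cell libraries was 0.39 over 7851 genes, whose values share level and depth in both.

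Transcripts encoded by the mitochondrial genome, which specify subunits of the respiratory chain, had estimates of one sign in every tested member. Of 13 genes 8 were tested and 5 had no count in the 6 libraries. In the deposited TPM all 13 could be tested and had an estimate above 0, with a median of 0.67 on log2(TPM + 1), so the counts leave out members that the TPM hold. All 8 had an unadjusted p under 0.05 and an estimate above 0, beside 2.45% of all genes, 7 did not overlap, beside 5.44%, and 0 passed in the fit on the 12 libraries. In the fit on the 6 libraries alone 7 passed, and the eighth, mt-Nd3, was too low to be tested there. The cytochrome b gene mt-Cytb stood at 5588, 6439 and 5290.1 CPM at 5000 cells and 3367, 3434 and 3689 CPM at 10000. The complex I gene mt-Nd1 stood at 4575, 4754 and 4289.9 CPM against 2831, 2712 and 2967 CPM. The complex I gene mt-Nd6, the list member on the minus strand, stood at 541, 550.2 and 599.8 CPM against 334, 335 and 302 CPM. For each the lowest 5000-cell library was above the highest 10000-cell library. The log2 differences were 0.72 (SE 0.20), 0.68 (SE 0.18) and 0.80 (SE 0.19). Their adjusted p were 0.905, 0.855 and 0.797 in the fit on 12 libraries and 1.29e-05, 3.35e-07 and 4.57e-07 in that on 6 (edgeR). The median over the list was 0.75, against 0.00 over all tested genes.

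The sum of the genes with counts was 22015, 23816 and 20815.5 CPM at 5000 cells and 13530.2, 13476.5 and 13553 CPM at 10000, or 2.22% ± 0.151 and 1.35% ± 0.00391 of counts (SD, n = 3 each). The sums ran from 14276 to 27273 CPM at 2500 cells and from 17026 to 18226 CPM at 20000, so they did not follow the order of the inputs. The median SD within groups was 0.083 in the 6 libraries and 0.34 in the 2500-cell and 20000-cell libraries, which enter the fit on 12. Leaving out replicate 2 or replicate 3 at 2500 cells from that fit gave 5 and 6 members past the threshold. The mitochondrial ribosomal RNA gene mt-Rnr2, which is on no list, stood at 7967, 8005 and 7859.7 CPM against 4907, 4705 and 4682 CPM, without overlap (adjusted p = 0.806 on 12 libraries and 1.31e-08 on 6, edgeR). The cause of the difference was not tested.

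**Figure D5:**
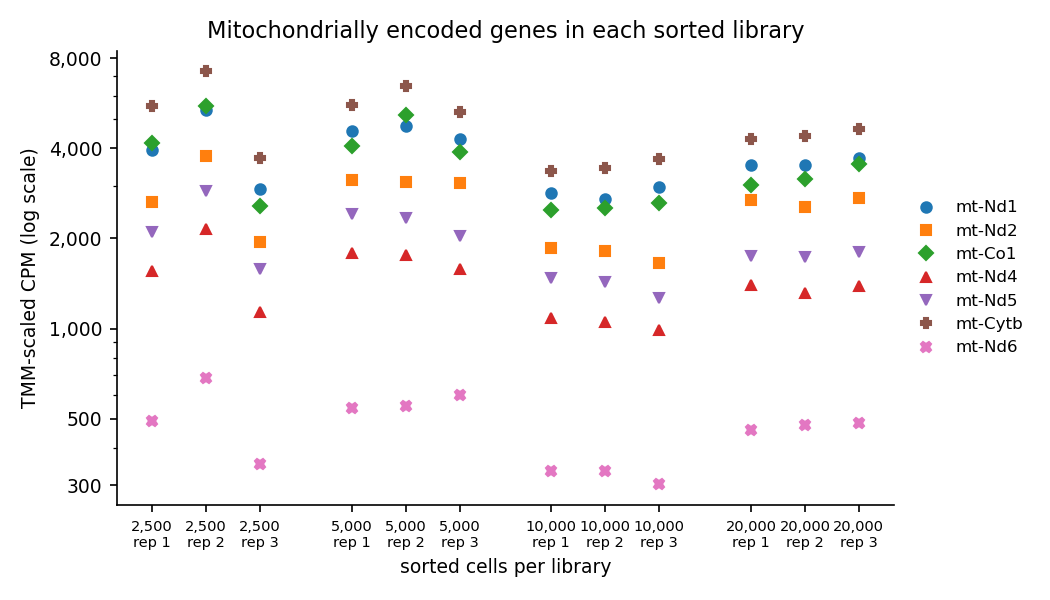
Level of 7 mitochondrially encoded genes (TMM-scaled CPM, y axis, log scale) in each of the 12 sorted libraries (x axis), grouped by number of sorted cells. All 7 genes are higher in the 3 libraries of 5000 cells than in the 3 of 10000 cells, and at 2500 cells all 7 are highest in replicate 2 and lowest in replicate 3.

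Cytosolic ribosomal protein genes had smaller differences of the same sign. Of 80 tested members 75 had an estimate above 0, 30 had an unadjusted p under 0.05 upward, beside 2.45% of all genes, 33 did not overlap upward, beside 5.44%, and the median log2 difference was 0.22, or 0.11 on log2(TPM + 1). None passed in the fit on the 12 libraries or in that on the 6. Rpl4 and Rplp0, of the large subunit, stood at 683, 648 and 685 CPM against 625, 618 and 635 CPM and at 376, 360.3 and 387 CPM against 347, 336 and 336 CPM, without overlap. Their log2 differences were 0.10 (SE 0.05) and 0.14 (SE 0.06). Many of these genes have processed pseudogenes, so their counts are uncertain. Of the 15 genes often used as references, Actb, which encodes β-actin, stood at 8533, 8603 and 7517 CPM against 6168, 6688 and 6906 CPM, without overlap. It passed in the fit on the 6 libraries (adjusted p = 0.0189) and not in that on the 12 (adjusted p = 0.998, edgeR). B2m, the light chain of MHC class I, and Ywhaz, a signalling adaptor chosen after its values were seen, overlapped, with ratios of highest to lowest library of 1.09 and 1.03.

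Immediate early genes, which cell handling can induce, had estimates below 0 in 17 of 19 members. Of these, 4 had an unadjusted p under 0.05, beside 2.04% of all genes in that direction, 5 did not overlap downward, beside 5.62%, and 0 passed. The median log2 difference was -0.13. Jund, an AP-1 subunit, stood at 881, 756 and 846 CPM against 1059, 923 and 1021 CPM, without overlap (-0.28, SE 0.08; adjusted p = 0.797, edgeR). It passed, as a lower gene, with the replicate number as a block and, with Egr1, without the filter on low counts. Klf2, a transcription factor of resting lymphocytes, overlapped (-0.04, SE 0.06). No heat shock gene of 11 had an unadjusted p under 0.05, and Hspa5, an endoplasmic reticulum chaperone, overlapped (-0.06, SE 0.06). Among 16 interferon-stimulated genes 2 had such a p, both with estimates above 0, beside 2.45% of all genes in that direction, and Irf7, a regulator of interferon, overlapped (0.04, SE 0.07).

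Genes listed for cells that a CD45 sort should leave behind had low sums in both groups. Hp, haptoglobin, stood at 183, 195 and 199 CPM against 146, 168 and 183 CPM, and Alb, albumin, stood at 54.1, 56.5 and 55.8 CPM against 41.8, 55.5 and 46.3 CPM. Hp did not overlap (adjusted p = 0.998, edgeR) and Alb did. Which of the sorted cells carried Hp was not tested, and the hepatocyte sum and share include it. Of 23 tested hepatocyte genes 18 had an estimate above 0, 2 had an unadjusted p under 0.05 upward, beside 2.45% of all genes, and 4 did not overlap upward, beside 5.44%. The hepatocyte sum ranged from 489.6 to 547 CPM at 5000 cells and from 399.8 to 488 CPM at 10000. Hbb-bs, a hemoglobin chain of red cells, stood at 16.6, 13.6 and 16.9 CPM against 32.5, 18.8 and 22.1 CPM, without overlap (-0.64, SE 0.80; adjusted p = 0.998, edgeR). With the hepatocyte share as a covariate, the neutrophil median was 0.14 in place of 0.54, with 11 of 16 estimates above 0, and the Kupffer median was -0.34 in place of -0.24. The mitochondrial median was 0.70 in place of 0.75. The hepatocyte share was higher in every 5000-cell library than in every 10000-cell library, so between these groups it cannot be told apart from the input. It was highest in replicate 3 at 5000 cells, and the neutrophil median was also 0.14 when that library was left out. The part of red cells in the differences above was not tested.

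Among genes with a mean of at least 5 CPM, and with number-only gene models, clone names and pseudogenes set aside, those with the smallest p were of no leukocyte list. Lars2, the mitochondrial leucyl-tRNA synthetase gene (chr9:123366927-123462666, plus strand), stood at 1623, 1375 and 1407 CPM at 5000 cells and 2142, 2021 and 1932 CPM at 10000, without overlap (-0.47, SE 0.08). Its adjusted p was 0.157 in the fit on 12 libraries and 0.000738 in that on 6 (edgeR). Whether the reads counted for Lars2 came from the transcript of the synthetase was not tested. Tmbim6, an inhibitor of cell death in the endoplasmic reticulum, stood at 183, 155 and 167 CPM against 233, 196 and 212 CPM (-0.35, SE 0.07). Ppm1a, a phosphatase, stood at 43.1, 43.1 and 40.8 CPM against 59.4, 56.2 and 53.00 CPM (-0.41, SE 0.09). Neither gene overlapped between inputs, and neither passed (adjusted p = 0.444 and 0.444, edgeR). Alox5ap, which activates leukotriene synthesis, stood at 135, 139.6 and 141 CPM against 117, 115 and 114 CPM (0.26, SE 0.06). Arid3a, a transcription factor of B cells, stood at 48.1, 53.7 and 42.1 CPM against 32.9, 39.4 and 30.3 CPM (0.49, SE 0.12). The mitochondrial transfer RNA gene mt-Tm stood at 8.61, 9.35 and 22.5 CPM against 5.03, 3.42 and 5.62 CPM (1.53, SE 0.35). These 3 did not overlap and were higher at 5000 cells, and none passed (adjusted p = 0.650, 0.688 and 0.650, edgeR).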

How the data were processed

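SMART-seq v4 RNA-seq libraries of sorted liver leukocytes were analysed. Raw counts per Ensembl gene, TPM and variance-stabilised values (a score near a log2 scale) were deposited by the authors. Tools named per the submitters' processing notes, with no role or order, are DESeq2 1.34.0, featureCounts 1.5.1, STAR 2.5.2b, FastQC 0.11.5 and RSEM 1.3.0, and the build GRCm38. For annotation and strand setting, the sources used here state nothing, and overlapping and antisense genes and near-identical copies are therefore uncertain. Gene positions are from GENCODE M21.

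Counts of the 12 sorted libraries were fitted with edgeR 4.0.16 (R 4.3.3): filterByExpr by group, TMM scaling, group means, robust quasi-likelihood with 8 residual degrees of freedom, and Benjamini-Hochberg adjustment over all genes tested. Gene levels are TMM-scaled CPM, and list sums are CPM of library totals. Spread was described for genes with a mean of at least 20 CPM over the 6 libraries. The test was checked on simulated counts. These were drawn with the same spread per gene in every group, so the check does not cover groups of unequal spread. DESeq2 1.42.0, limma 3.58.1, the deposited TPM and score values, other filters and left-out libraries were alternatives. Named genes were Ptprc, the 3 genes of smallest p per direction, the 2 most abundant members of each list, and the 10 most and 10 least even leukocyte genes and 10 least even genes overall. The 3 per direction were taken among genes with a mean of at least 5 CPM over the 6 libraries. Gene models known only by a number, clone names and pseudogenes were counted and not named. Further list members were named as examples, or as members of a count or pattern, after their values were seen: Ctla4, Ccl5, Cd79a, Cd79b, Mzb1, Prdm1, Vsig4, Timd4, C1qa, C1qb, Adgre1, Axl, Ly6c2, Chil3, Ace, Klf4, Csf3r, Mmp8, Ltf, Camp, Lcn2, Clec10a, Zbtb46, Bst2, Ywhaz, Egr1, Ighv3-6, Igkv6-15, mt-Nd3 and mt-Nd6, and mt-Rnr2 of no list. The members and lists were chosen with earlier results of these data known. Replicate numbers were not taken to pair libraries.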

Additional observations from a re-analysis of the deposited data

How the results depend on the processing

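The number of genes past an adjusted p of 0.05 was the result most open to the choice of libraries and test. Against 0 higher and 0 lower genes, the fit on the 6 libraries alone gave 14 and 4, no filter on low counts 54 and 42 (3 of these 96 outside the genes otherwise tested), and DESeq2 2 and 7. Lower genes alone appeared without robust estimation (1), on log2(TPM + 1) and log2(TPM + 0.1) (1 each) and under the replicate block (5, with 0 higher). Leaving out each library in turn gave 0 to 10 higher and 0 to 2 lower genes, the most higher without replicate 3 at 2500 cells. Fits chosen after seeing the data gave 13 higher genes with 5000, 10000 and 20000 cells, 2 lower genes with 2500, 5000 and 10000 cells, and 9 to 13 higher (11 without replicate 3 at 5000 cells) and 1 to 6 lower genes when each of the 6 libraries was left out of the fit on those alone. Deviations of same-numbered libraries correlated at 0.090, 0.105 and 0.075, and those of other pairs at -0.164 to 0.080. Each library correlated best with its own number. Such small correlations cannot decide whether replicate numbers pair the libraries.

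The narrower of the bounds tried left 4884 genes with an interval inside it. The median SD at 5000 cells was 0.11 on TPM, 0.12 from 5 CPM, 0.0831 from 50 CPM and 0.0766 to 0.0822 with a library left out. At 10000 cells it was 0.111 from 5 CPM and 0.0643 to 0.0848 with a library left out. From 50 CPM, 4588 genes stayed within 1.5 times. On TPM the ratio of summed levels was 0.933 for pan-leukocyte, 0.969 for B cell, 0.838 for plasma cell, 0.988 for monocyte, 0.948 for dendritic cell, 0.885 for MHC class II and 0.932 for mast cell or basophil genes. In the same order the ratios on counts were 0.978, 1.02, 0.929, 1.03, 1.00, 0.940 and 1.06. Of 186 leukocyte genes on log2(TPM + 1), 36 had an estimate above 0, with a median of -0.11. On counts these were 84 of 188 and -0.01. With at least 5 counts, 15597 and 15522 genes were detected at 5000 and 10000 cells. Tyrobp changed sign, to -0.0060, on both TPM scales. Mitochondrial genes passed in 12 of 34 alternatives and leukocyte genes in 6. The cause of these changes was not tested. Counting at this depth alone gave a median SD of 0.057 over genes of at least 20 CPM.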
